A study of Mus musculus with 5 samples.

Results

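Complement genes were followed in whole-heart RNA from lupus-prone and control mice: the 3 chains of C1q (C1qa, C1qb, C1qc), the C1s protease (C1s1), C4b, C3, the alternative pathway components factor B (Cfb) and properdin (Cfp), and the receptor for C3a (C3ar1). A probe set, the group of oligonucleotides that reports 1 transcript on the array, was taken when its annotation gave exactly one of these symbols. This gave 12 probe sets of 7 genes, of 45101 probe sets on the array. C3 and C4b had 0 such probe sets: the 1 probe set that carries the C4b symbol carries that of C4a as well and stands for neither, and C3 is not analysed here. All 12 probe sets were above the median of their array on all 5 arrays, so all 12 entered the test.

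The NZB_W group has 3 arrays of hearts from female NZB_W mice (the NZB/W F1 mouse, a model in which autoantibodies and nephritis arise without any inducing agent), 12 to 15 weeks old and with moderate kidney injury by Austin scoring. The NZW control group has 2 arrays of hearts from healthy female NZW mice of matched age. None of the mice was treated, and hearts were taken after bleeding and perfusion with saline. The groups differ in genotype and in disease together, so strain and nephritis cannot be told apart in any comparison here. The arrays were run as a pilot, to find candidate genes for cardiac changes in this nephritis. Each array is called a biological replicate in the labels, and whether each holds RNA of 1 heart is not stated there. Precision is limited by the number of arrays.

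Complement is a cascade of plasma proteins. In the classical pathway C1q binds antibody in immune complexes and activates the proteases C1r and C1s, which cleave C4 and C2; the alternative pathway runs on C3, factor B and properdin and amplifies C3 cleavage from any start. Most complement proteins in plasma are made by the liver, whereas C1q is made mainly by macrophages and related myeloid cells, properdin by leukocytes, and C1s, C1r and the C1 inhibitor also by fibroblasts. Immune complexes and low plasma complement are hallmarks of lupus nephritis.

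Values are deposited log2 expression levels, with array medians between 4.62 and 4.68. Over the probe sets tested, Pearson's r between NZB_W array 3 and NZB_W arrays 1 and 2 was 0.977 and 0.981, against 0.993 between arrays 1 and 2. NZB_W array 3 held the highest value in 27.8% of probe sets tested and NZW array 2 the lowest in 18.2%. Among the 12 complement probe sets, NZB_W array 3 was highest in 10 and NZW array 2 was lowest in 9. Differences of the 12 probe sets are therefore also given with one or both of these arrays left out.

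No complement probe set passed the test. The limma fit over 22819 probe sets called 5 of them (0.0219%) at a Benjamini-Hochberg adjusted p under 0.05, all 5 higher in NZB_W, and 0 of these were among the 12. At an unadjusted p under 0.05 there were 3 of the 12 (Cfb 1417314_at, C1qb 1417063_at and C3ar1 1419482_at), against 5.25% of all probe sets tested. The NZB_W mean was higher in 11 of the 12, against 45.6% of all. In 7 of the 12 every NZB_W array lay above both NZW arrays, against 6.96% of all, and in 0 every NZB_W array lay below both, against 9.66% of all. The 7 were the 5 of C1q, Cfb and 1 of C3ar1. Without NZW array 1 the groups were apart in 11, of which 10 were higher, against 21.3% of all probe sets, and 1 lower, against 25.7% of all. The median difference was 0.65 on the log2 scale over the 12 and -0.013 over all probe sets tested. The genes were chosen with earlier results of these data known, so these counts describe them and are not independent evidence of a direction.

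**Figure D1:**
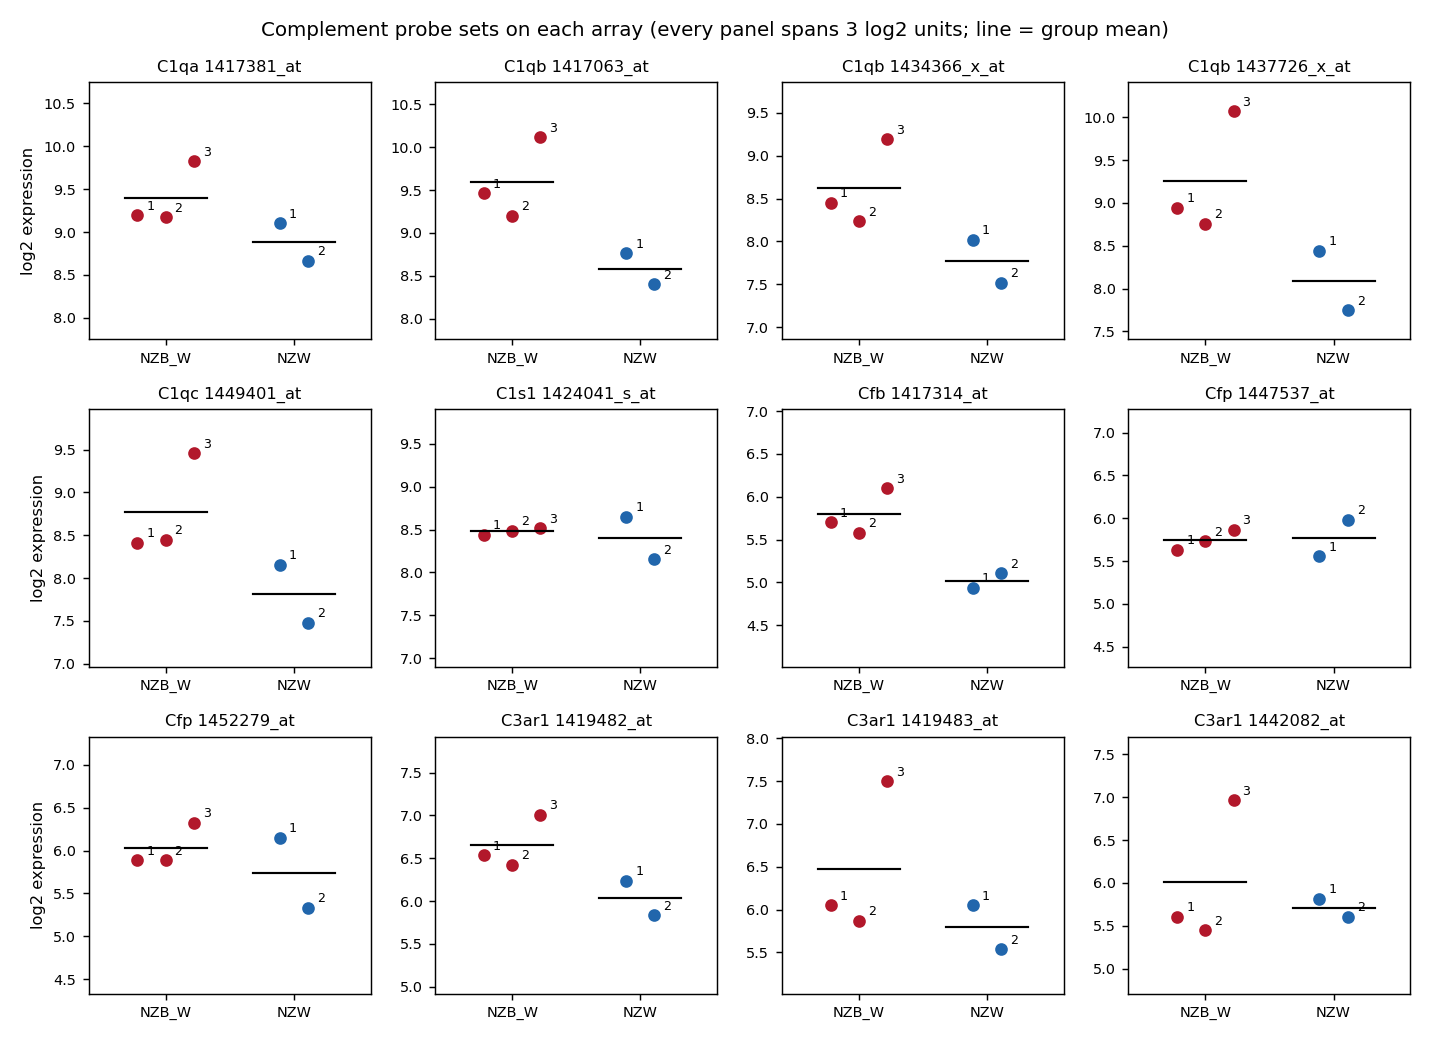
Log2 expression (y axis) of the 12 complement probe sets in NZB_W hearts (red, 3 arrays) and NZW hearts (blue, 2 arrays), with the array number beside each point and a line at each group mean. The groups do not overlap for the 5 C1q probe sets, Cfb and C3ar1 1419482_at, and NZB_W array 3 is the highest point in 10 of the 12 panels.

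C1q, the recognition protein of the classical pathway, was apart between the groups on all of its probe sets. Its 3 chains are encoded by neighbouring genes, with 0 protein-coding genes between C1qb and C1qc and 0 between C1qc and C1qa. The 5 C1q probe sets differed by 0.51 to 1.16 on the log2 scale, with a median of 0.96. Without NZB_W array 3 and NZW array 2 they differed by 0.077 to 0.57. These arrays were the highest and the lowest of every C1q probe set, so leaving them out had to shrink its difference. Promoter windows of C1qb and C1qc are shown here because both chains were apart between the groups, and those of C1s1 and C3ar1 to set a protease of the same complex and a myeloid receptor beside them. They hold 250 bases before and 50 after the transcription start, 5′ to 3′ (RefSeq, GRCm38.p6), with capitals marking GAGGAA, the core bound by the myeloid factor PU.1, and GGAAGT, an ETS family core, on either strand.
C1qb, chr4:136886151-136886450, minus strand: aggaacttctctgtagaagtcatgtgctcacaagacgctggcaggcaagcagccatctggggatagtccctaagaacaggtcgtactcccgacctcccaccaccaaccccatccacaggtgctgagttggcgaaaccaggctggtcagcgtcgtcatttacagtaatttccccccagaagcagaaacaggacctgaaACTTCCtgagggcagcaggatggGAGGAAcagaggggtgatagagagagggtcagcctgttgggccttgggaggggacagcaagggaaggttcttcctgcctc
C1qc, chr4:136892865-136893164, minus strand: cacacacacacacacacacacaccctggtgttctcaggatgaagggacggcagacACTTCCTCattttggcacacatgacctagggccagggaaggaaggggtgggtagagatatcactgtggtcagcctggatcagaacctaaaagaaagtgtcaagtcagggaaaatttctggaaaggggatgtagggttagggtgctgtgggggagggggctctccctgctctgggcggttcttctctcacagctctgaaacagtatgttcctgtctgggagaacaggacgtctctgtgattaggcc
C1s1, chr6:124542310-124542609, minus strand: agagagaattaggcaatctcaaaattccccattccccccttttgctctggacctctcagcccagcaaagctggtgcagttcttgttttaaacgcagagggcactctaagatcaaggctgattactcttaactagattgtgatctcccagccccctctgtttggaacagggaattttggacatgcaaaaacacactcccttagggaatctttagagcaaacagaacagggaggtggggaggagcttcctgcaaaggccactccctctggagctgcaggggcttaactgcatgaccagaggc
C3ar1, chr6:122856108-122856407, minus strand: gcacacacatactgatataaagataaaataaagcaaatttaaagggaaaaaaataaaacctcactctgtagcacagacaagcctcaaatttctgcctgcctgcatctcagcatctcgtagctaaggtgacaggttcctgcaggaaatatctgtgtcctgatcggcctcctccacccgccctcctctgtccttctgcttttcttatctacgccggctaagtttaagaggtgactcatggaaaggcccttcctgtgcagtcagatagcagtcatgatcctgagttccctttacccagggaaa

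Positions count from the transcription start and give the leftmost base of a match as printed. The C1qb window holds GAGGAA at -30 on the strand shown and GGAAGT at -53 on the opposite strand. The C1qc window holds both on the opposite strand, at -193 and -195, where the 2 matches overlap. The C1s1 windows (2, of which the first is shown) and the C3ar1 window hold 0 of either, and the Cfp window holds 2 of GAGGAA. Among 32851 promoter windows of this length, 28.3% hold GAGGAA and 23.8% hold GGAAGT, so both are common words. On either strand, an ETS-IRF composite element (in 2.72% of windows), an ISRE core (3.44%) and a GAS (TTCNNNGAA, 8.3%) had 0 matches in any of the 7 windows of the 6 genes that have one (C1qb, C1qc, C1s1, C3, C3ar1, Cfp). A match is a string of letters, and binding was not measured.

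C1qb, the B chain, was read by 3 probe sets. On 1417063_at it read 9.46, 9.20 and 10.12 on NZB_W arrays 1, 2 and 3, against 8.76 and 8.40 on NZW arrays 1 and 2. All 3 NZB_W arrays lay above both NZW arrays, with array 3 highest. The means were 9.59 ± 0.47 in NZB_W (SD, n = 3) and 8.58 ± 0.26 in NZW (SD, n = 2), a difference of 1.01 (SE 0.31, 95% interval 0.20 to 1.83, limma adjusted p = 0.883) or 2.02-fold. Only 0.574% of all probe sets tested had a larger difference, but 2.74% had a smaller p. The difference was 0.75 without NZB_W array 3, 0.83 without NZW array 2 and 0.57 without both.

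The other C1qb probe sets gave the same order of groups. On 1434366_x_at C1qb read 8.45, 8.23 and 9.19 in NZB_W, against 8.02 and 7.52 in NZW, a difference of 0.86 (SE 0.34). On 1437726_x_at it read 8.94, 8.76 and 10.07 in NZB_W, against 8.44 and 7.75 in NZW, a difference of 1.16 (SE 0.48). Both ended in _x_at, which marks probes that can also bind other transcripts. Without NZB_W array 3 and NZW array 2 these differences were 0.32 and 0.41.

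C1qc, the C chain, read 8.41, 8.45 and 9.46 on the NZB_W arrays, against 8.16 and 7.48 on the NZW arrays (1449401_at). The lowest NZB_W array exceeded the higher NZW array by 0.26, and NZB_W array 3 and NZW array 2 lay farthest apart. The means were 8.77 ± 0.59 (SD, n = 3) and 7.82 ± 0.48 (SD, n = 2), a difference of 0.96 (SE 0.41, limma adjusted p = 0.883) or 1.94-fold, and 0.28 without NZB_W array 3 and NZW array 2.

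C1qa, the A chain, read 9.19, 9.17 and 9.83 in NZB_W hearts, against 9.11 and 8.67 in NZW hearts (1417381_at). The groups did not overlap, but NZB_W array 2 exceeded NZW array 1 by only 0.065. The difference was 0.51 (SE 0.27, 95% interval -0.19 to 1.21, limma adjusted p = 0.883) or 1.43-fold, and 0.077 without NZB_W array 3 and NZW array 2. Without NZB_W array 3 alone it was 0.30, and without NZW array 2 alone 0.29.

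Distances between array patterns were small within C1q, but not only there. After centring each on its own mean over the 5 arrays, the root-mean-square distance between 2 C1q probe sets ran from 0.094 to 0.39 log2 units over 10 pairs. The closest pair was C1qb 1417063_at with C1qb 1434366_x_at (0.094), and C1qc lay 0.126 from C1qb 1434366_x_at. C1qa, with the smallest swing of the chains, lay closest to C3ar1 1419482_at (0.074) and Cfp 1452279_at (0.178), both nearer than any C1qb or C1qc probe set, of which the nearest was at 0.196. C1s1 lay 0.305 from C1qa, and Cfb lay 0.242 from C1qb 1417063_at and 0.243 from C1qa, within the range among C1q probe sets. These probe sets share 5 arrays and a tissue, and a probe set with a small swing is nearer to others with a small swing.

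C1s1, the protease of the C1 complex that cleaves C4 and C2, had overlapping groups. It read 8.44, 8.49 and 8.51 in NZB_W hearts, against 8.65 and 8.15 in NZW hearts (1424041_s_at). The NZB_W arrays were nearly level and lay between the 2 NZW arrays. The difference was 0.079 (SE 0.16, limma adjusted p = 0.940), with a 95% interval from -0.34 to 0.50. The difference between C1s1 and C1q was not tested, and their intervals overlap. Without NZW array 2 the C1s1 difference was -0.17. C1s1 has only this 1 probe set, which ends in _s_at. With _s_at, _x_at and _a_at probe sets left out C1s1 has no value, and the classical arm's median difference was then 0.96.

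Among the alternative pathway genes, Cfb stood apart from properdin. Cfb, the zymogen of the C3 convertase protease, read 5.70, 5.58 and 6.10 in NZB_W hearts, against 4.94 and 5.11 in NZW hearts (1417314_at). Every NZB_W array exceeded both NZW arrays, by 0.47 at the closest. The means were 5.79 ± 0.27 (SD, n = 3) and 5.02 ± 0.12 (SD, n = 2), a difference of 0.77 (SE 0.18, 95% interval 0.30 to 1.25) or 1.71-fold. Its adjusted p of 0.728 in the limma fit was the smallest of the 12, and 1.29% of all probe sets tested had a smaller p. Unlike C1q, Cfb was not lowest on NZW array 2, and its difference was 0.62 without NZB_W array 3, 0.86 without NZW array 2 and 0.70 without both. NZW array 2 was the higher NZW array for Cfb, so leaving it out had to raise the difference. With NZW array 1 left out instead, the Cfb difference was 0.69. These values therefore do not compare how much Cfb and C1q depend on single arrays. Cfb lies in the major histocompatibility complex beside C2, with 0 protein-coding genes between them.

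Cfp encodes properdin, which stabilizes the alternative pathway convertase. On 1452279_at it read 5.89, 5.89 and 6.32 in NZB_W hearts, against 6.15 and 5.33 in NZW hearts, a difference of 0.29 (SE 0.29, limma adjusted p = 0.891). On 1447537_at it read 5.63, 5.73 and 5.87 in NZB_W hearts, against 5.56 and 5.98 in NZW hearts, a difference of -0.024 (SE 0.16, limma adjusted p = 0.988). The groups overlapped on both, and the 2 probe sets ordered the NZW arrays in opposite ways. Without NZW array 2 the differences were -0.12 on 1452279_at and 0.19 on 1447537_at.

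C3ar1, the receptor through which the C3a fragment acts on myeloid cells, was read by 3 probe sets that did not give the same separation. On 1419482_at C3ar1 read 6.53, 6.43 and 7.01 in NZB_W hearts, against 6.24 and 5.83 in NZW hearts, a difference of 0.62 (SE 0.23, limma adjusted p = 0.883) or 1.54-fold. On 1419483_at it read 6.05, 5.87 and 7.50 in NZB_W hearts, against 6.05 and 5.53 in NZW hearts, a difference of 0.68 (SE 0.56). On 1442082_at it read 5.61, 5.45 and 6.97 in NZB_W hearts, against 5.82 and 5.61 in NZW hearts, a difference of 0.30 (SE 0.51). The groups overlapped on 1419483_at and 1442082_at, where NZB_W array 3 alone stood above the NZW arrays. Without that array the difference was 0.44 on 1419482_at, 0.16 on 1419483_at and -0.18 on 1442082_at.

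**Figure D2:**
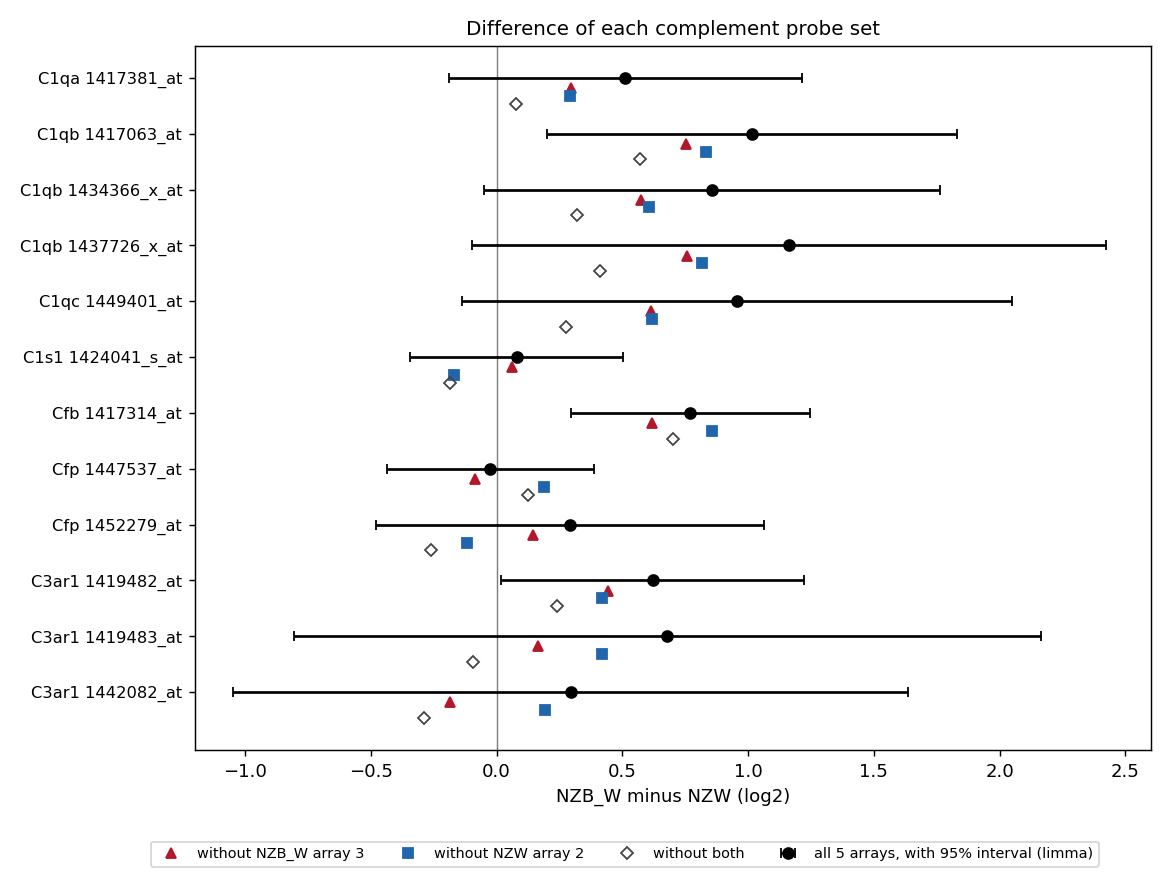
Difference of NZB_W minus NZW on the log2 scale (x axis) for each complement probe set, with limma's 95% interval (bars) over 5 arrays, and the differences without NZB_W array 3 (triangles), without NZW array 2 (squares) and without both (diamonds). Cfb stays between 0.62 and 0.86 in all of these, while with both arrays left out C1qa is at 0.077 and C3ar1 1442082_at at -0.29. The arrays left out are the highest and the lowest for C1q, whereas NZW array 2 is the higher NZW array for Cfb, so the choice of arrays favours this contrast.

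Set against each other, the classical arm (6 probe sets of C1qa, C1qb, C1qc and C1s1) had a median difference of 0.91 and the alternative arm (3 probe sets of Cfb and Cfp) one of 0.29. Without NZB_W array 3 and NZW array 2 the medians were 0.30 in the classical and 0.13 in the alternative arm, and without NZW array 1 the alternative arm's was 0.69. Within each arm the members were unlike: differences ran from 0.079 to 1.16 in the classical arm and from -0.024 to 0.77 in the alternative arm. With 1 probe set per gene, the brightest, the alternative arm's median was 0.53. The arms were not tested against each other, and their ranges overlapped.

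By the median of their list, macrophage markers had the same high and low arrays as C1q, but not every marker did. Lyve1 was highest on NZW array 1 and differed by -0.30. Cd14 was highest on NZB_W array 1, and Adgre1 and Fcgr1 were lowest on NZW array 1. Of 16 genes of that list, 14 passed the brightness filter, 13 of these had the higher mean in NZB_W (45.6% of all probe sets tested did), 7 were apart and higher (6.96% of all), 0 passed the test, and the median difference was 0.56 (0.29 without NZB_W array 3, 0.29 without NZW array 2 and 0.076 without both). Their summed level, as log2 of the sum over 16 genes, ran from 12.3 to 13.1 in NZB_W and from 11.8 to 12.3 in NZW. Timd4 was below the array median on all 5 arrays and Cx3cr1 on 4 of them. The centred median of the list was -0.045, -0.067 and 0.76 on NZB_W arrays 1, 2 and 3, against -0.11 and -0.41 on NZW arrays 1 and 2. That of C1q was 0.15, -0.023 and 0.93, against -0.26 and -0.79. C1q minus the macrophage list therefore gave 0.198, 0.044 and 0.17 in NZB_W, against -0.15 and -0.37 in NZW, whereas Cfb minus the list gave 0.26, 0.16 and -0.14, against -0.44 and 0.038. The part of macrophage content in the C1q values was not tested, and in whole-tissue RNA more cells of a type and more RNA per cell cannot be told apart.

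**Figure D3:**
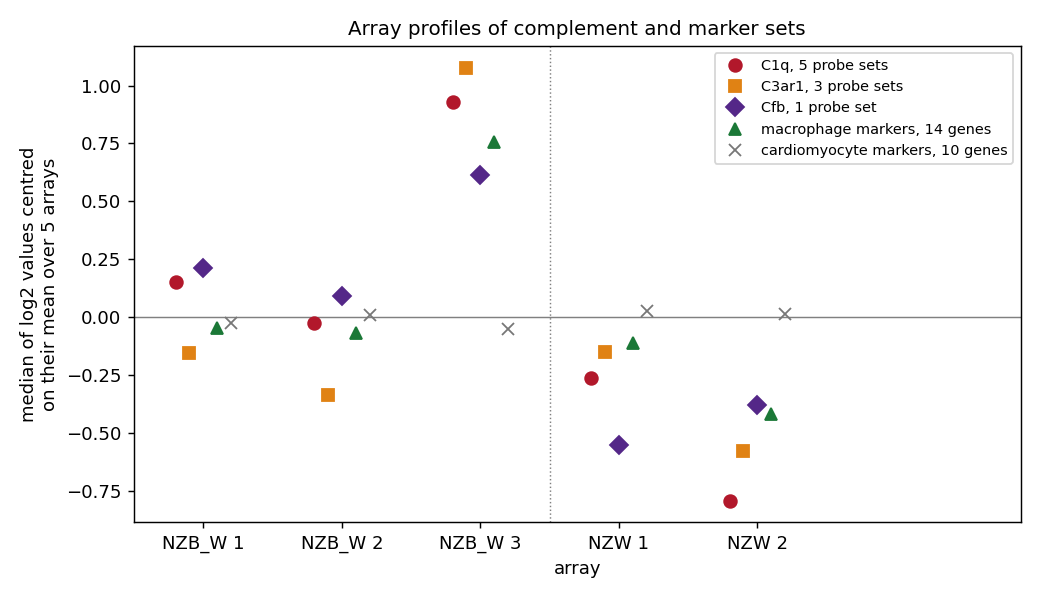
Median of log2 values, each probe set centred on its mean over 5 arrays (y axis), on every array (x axis, NZB_W left of NZW) for C1q, C3ar1, Cfb, macrophage markers and cardiomyocyte markers. C1q, C3ar1 and macrophage markers peak together on NZB_W array 3 and are lowest on NZW array 2, Cfb is lowest on NZW array 1, and cardiomyocyte markers lie between -0.048 and 0.028.

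Other cell type lists followed other patterns. The 10 cardiomyocyte markers were all bright, as the labelled tissue requires, with a median difference of -0.029 and 3 of 10 higher. The 10 fibroblast markers differed by a median of 0.076 (-0.26 without NZB_W array 3), with 7 higher. The 4 neutrophil markers that passed the filter of 9 with a probe set had a median of -0.018 (-0.32 without NZB_W array 3), and Mpo, Elane, Cxcr2, Camp and Ltf were below the array median throughout. Of 8 hepatocyte markers with a probe set 3 passed the filter (median -0.16, and -0.037 without NZB_W array 3 or -0.32 without NZW array 2), and Alb, Apoh, Fgb, Hpx and Cps1 were below the array median on all 5 arrays. The 5 adipocyte markers had a median of -0.42 (-0.90 without NZW array 2) and the 8 endothelial markers one of 0.11 (-0.016 without NZB_W array 3). Of 5 erythroid markers with a probe set 3 passed the filter, all 3 apart and higher in NZB_W (6.96% of all probe sets tested were), with a median of 2.19. Of these, Slc4a1 was above the array median on the 3 NZB_W arrays alone, and so entered through them. The summed level of the 5 ran from 8.84 to 10.9 in NZB_W and from 8.32 to 8.44 in NZW. In none of these lists did a gene pass the test.

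The other complement genes centred near 0. The 6 lists written from textbook knowledge hold 53 genes, of which 43 have a probe set and 28 passed the filter by their brightest one. None of the 28 passed in either direction, 20 had the higher mean in NZB_W (45.6% of all probe sets tested did) and 8 the lower, and 8 were apart and higher (6.96% of all) and 3 apart and lower (9.66% of all). Their median difference was 0.065, and that of the 21 genes outside the 7 was 0.019, with 13 of 21 higher, 3 apart and higher and 3 apart and lower. The 3 apart and higher were Itgam, Itgax and Itgb2, which are also among the 8. Itgam and Itgax passed the filter through NZB_W arrays alone, so the filter favoured their direction and these counts do not bear on it. The median of the 28 was -0.0034 without NZW array 2 and 0.30 without NZW array 1.

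Partners of C1q and C1s in the classical pathway lay near 0 on their brightest probe sets. C1ra, the protease that activates C1s and the neighbour of C1s1, differed by -0.089 (SE 0.18). C2, cleaved by C1s, differed by 0.013 (SE 0.20) on its brightest probe set and by -0.37 (SE 0.22) and -0.053 (SE 0.23) on its others. Serping1, the C1 inhibitor, differed by 0.036 (SE 0.091). Fcna, a ficolin of the lectin pathway made by macrophages, averaged 6.73 ± 0.034 in NZB_W (SD, n = 3) and 7.21 ± 0.63 in NZW (SD, n = 2), with the groups overlapping. That difference of -0.47 was -0.027 without NZW array 1 and -0.92 without NZW array 2.

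Among regulators and terminal components, Cd55, which speeds the decay of C3 convertases, had the lowest difference. It averaged 5.72 ± 0.27 in NZB_W and 6.25 ± 0.23 in NZW on its brightest probe set (SD, n = 3 and 2), a difference of -0.53 (SE 0.195, limma adjusted p = 0.883) and of -0.27 without NZB_W array 3 and NZW array 2, while its 2 other probe sets differed by 0.057 (SE 0.195) and -0.080 (SE 0.13). The mouse convertase regulator Crry (Cr1l) differed by -0.0063 (SE 0.10) and factor I (Cfi), which cleaves C3b, by 0.31 (SE 0.27) with all arrays and 0.057 without NZB_W array 3. C8g, a subunit of the membrane attack complex component C8, differed by -0.27 (SE 0.095, limma adjusted p = 0.883) without overlap. It was the 1 of 6 terminal pathway genes with a probe set that passed the filter.

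Of 8 receptor genes above the filter, 6 had the higher mean in NZB_W (45.6% of all probe sets tested did), and 4 of these were apart (6.96% of all). The 2 others had the lower mean. C1qbp differed by -0.073 with the groups apart (9.66% of all were apart and lower), and Vsig4 by -0.33 with the groups overlapping. Without NZB_W array 3 and NZW array 2 the Vsig4 difference was -1.73. Itgam, the CD11b chain of complement receptor 3, read 5.09, 4.76 and 5.39 in NZB_W hearts, against 3.69 and 3.77 in NZW hearts. This was a difference of 1.35 (SE 0.199, limma adjusted p = 0.434), and 1.24 without NZB_W array 3 and NZW array 2. Both NZW values of Itgam were dimmer than the median probe set of their array. Itgam thus entered the test through the NZB_W arrays. Its partner Itgb2 differed by 0.58 (SE 0.30) without overlap, by 0.32 without NZB_W array 3 and by 0.14 without NZB_W array 3 and NZW array 2. Itgax, the CD11c chain of complement receptor 4, differed by 0.63 (SE 0.27) and by 0.38 without NZB_W array 3. It was above the array median on NZB_W arrays 1 and 3 alone, and so also entered through the NZB_W arrays. Cd93, once described as a C1q receptor, differed by 0.52 (SE 0.33) with the groups overlapping, and by 0.24 without NZB_W array 3. C5ar1, the receptor for C5a, differed by 0.019 (SE 0.071) on its brightest probe set. That probe set held the same value, 4.91, on NZB_W array 1 and both NZW arrays. Another C5ar1 probe set, which did not pass the filter, differed by 0.31. The C3a receptor differed by 0.62 on its brightest probe set, and these receptors were not tested against each other.

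**Figure D4:**
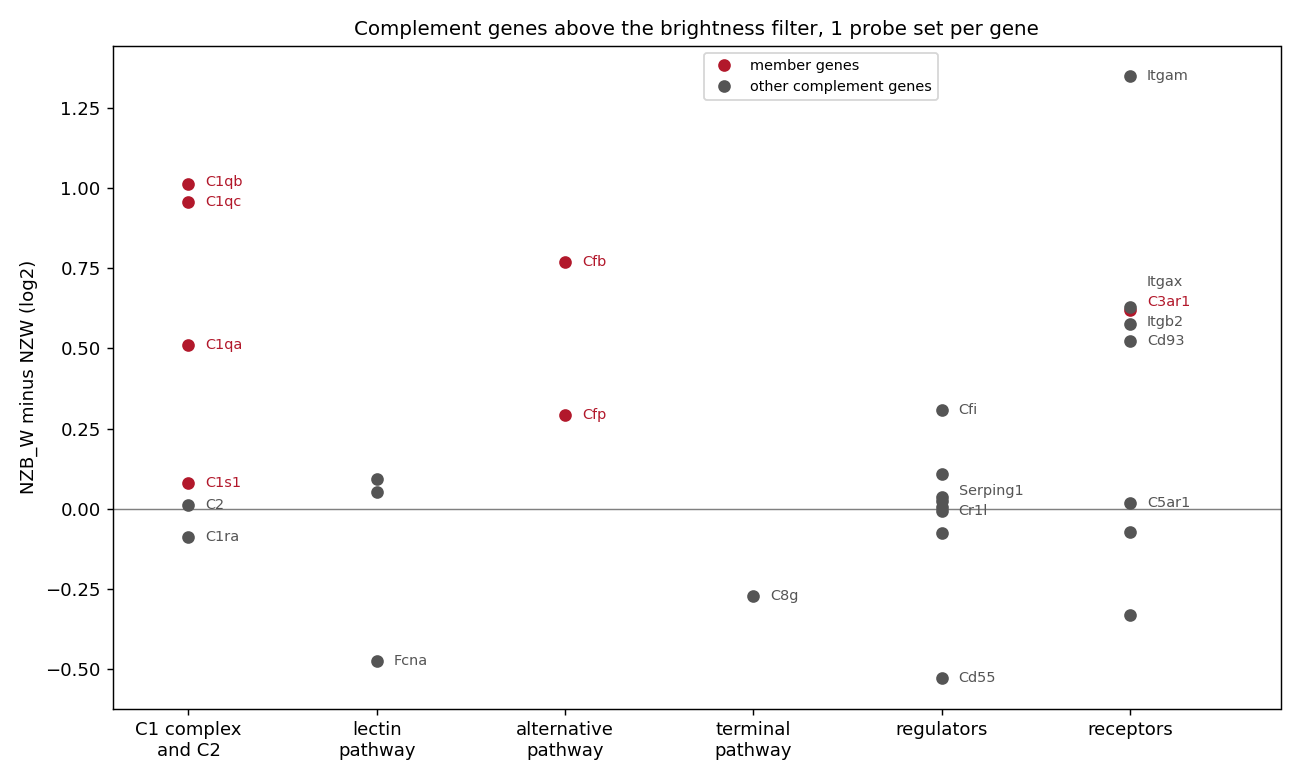
Difference of NZB_W minus NZW on the log2 scale (y axis) for the 28 complement genes above the brightness filter, by role (x axis), 1 point per gene from its brightest probe set, with the 7 member genes in red and the other genes described in the text, except C1qbp and Vsig4, labelled in grey. C1q, Cfb and 5 receptors lie at 0.51 or above, while C1s1, C1ra, C2, Serping1 and Cr1l lie within 0.089 of 0.

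The genes whose array pattern was nearest to the C1q mean, among 11899 genes over 5 arrays, were Glipr1, Limd2, Pld4, Ctsc and P2ry6, with root-mean-square distances of 0.046 to 0.101 log2 units after centring. Ctsc, the lysosomal protease cathepsin C, read 9.42, 9.53 and 10.18 in NZB_W hearts, against 9.03 and 8.75 in NZW hearts. Pld4, a phospholipase D family member of myeloid cells, read 5.73, 5.85 and 6.51, against 5.49 and 4.97. Like C1q, both were highest on NZB_W array 3 and lowest on NZW array 2. They were picked for closeness to C1q on these same arrays, so this likeness follows from the selection and is no separate observation.

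Cfb had other neighbours. Nearest to it among 11901 genes were Ifi204, Upp1, Lst1, E330017L17Rik and Psmb8, at 0.035 to 0.085 log2 units. Ifi204, an interferon-inducible p200 family gene, read 5.65, 5.45 and 6.00 in NZB_W hearts, against 4.84 and 4.96 in NZW hearts, 0.035 from Cfb. Psmb8, the immunoproteasome subunit LMP7, read 7.67, 7.49 and 8.23, against 7.05 and 7.11. As for Cfb, NZW array 2 was not the lowest array for either, which again follows from picking them by closeness to Cfb. None of the 10 genes passed the test (limma adjusted p from 0.440 to 0.883).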

How the data were processed

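Heart RNA was measured on 5 Affymetrix Mouse Genome 430 2.0 arrays, 3 NZB_W and 2 NZW, each from 6 µg of total RNA, per the labels' protocols. The deposited values are log2 expression levels, 1 per probe set and array; RMA, GCRMA and Partek appear in the submitters' processing notes, with no role or version, and neither the one used nor a genome build is given in the sources used here. RMA and GCRMA treat background differently, which affects dim probe sets most. Of the probe sets tested, 47.1% hold exactly equal values on at least 2 arrays. Without scanner files there are no detection calls. Groups and replicate numbers come from the titles, and 0 columns lacked a sample.

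Of 45101 probe sets, 64 controls were left out, 34945 carry 1 symbol, 932 several and 9224 none in the platform annotation. Probe sets above the median of their array on at least 2 arrays (22819) were tested in 1 fit with limma 3.58.1 in R 4.3.3 (lmFit, eBayes, two-sided, no covariates; 1.61 prior and 3 residual degrees of freedom), with Benjamini-Hochberg adjustment over all of them and a threshold of 0.05. SE is limma's moderated standard error, and a fold is the antilog of a difference. On simulated data for 22819 probe sets, 49.3%, 82.1% and 84.8% of changes of 1, 2 and 3 log2 units were called, with 3 false calls. In the measured data the median SE over probe sets was 0.11, while the complement probe sets had SEs of 0.16 to 0.56. The simulated shares therefore do not give the chance of calling a change in a complement probe set.

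In lists, the brightest probe set on average stands for a gene. The genes and lists were chosen with earlier results of these data known. Genes named are all members, fixed partners, regulators and receptors, up to 2 further genes per complement list by smallest p, the receptors with a lower mean, and the 5 nearest patterns to C1q and to Cfb. The text prints some of these, chosen after their values were seen; that for C3 could not be had. Promoter windows are from RefSeq (GRCm38.p6), and the motifs searched were chosen with the results known. Alternatives covered normalization, filter, unit of the fit, variance model, weights, replicate block, threshold and arrays left out. Figures were drawn with matplotlib 3.10.9.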

Additional observations from a re-analysis of the deposited data

How the results depend on the processing

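Under 18 alternative settings 0 complement probe sets passed, as in the fit reported, and their adjusted p ran from 0.391 (Cfb) to 1. Of 188 values of the 12 probe sets under alternatives 176 kept their direction and 12 turned it, and the cause was not tested. Settings that alter only the filter, the choice of probe sets fitted or the variance model cannot change the difference of a probe set. Their values are among the 176 and could not have turned. No C1q or Cfb value turned. With any 1 array left out the C1q median ran from 0.61 to 1.19, the classical median from 0.59 to 1.15 and the alternative median from 0.15 to 0.69. The median of all 12 ran from 0.37 to 0.81 and that of the complement lists from -0.0034 to 0.30. The groups were then apart in 7 to 11 of the 12 probe sets, with 0 or 1 of these lower. Of all probe sets tested, 9.75% to 21.3% were then apart and higher, and 12.2% to 25.7% apart and lower. With both of NZB_W array 3 and NZW array 2 left out the C1q median was 0.32, the classical 0.30 and that of all 12 was 0.18. On the 3 arrays left, 8 of the 12 were apart and higher, against 24.1% of all probe sets tested. The other 4 were apart and lower, against 31.6% of all. The count of all probe sets passing, 5, was 8 with median centring, 2 with no filter and 1 in a gene-level fit on the brightest probe set. It was 3 with only probe sets whose suffix is plain _at, 16 with array weights and 12 at an adjusted p under 0.1. With 1 NZB_W array left out it was 0 without array 1, 0 without array 2 and 2 without array 3, so the 5 calls rest on single arrays. On the brightest probe set the alternative median was 0.53. After averaging a gene's probe sets 4 of the complement genes did not overlap. The share of all genes without overlap in that fit was not computed, so this count has nothing to be read against.

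Directions turned for C1s1 (-0.17 without NZW array 2, up to 0.33 with any 1 array left out, -0.18 without both arrays), C3ar1 1419483_at (-0.095 without both), C3ar1 1442082_at (-0.12 with array weights, -0.18 with the replicate block and without NZB_W array 3, up to 0.58 with any 1 array left out, -0.29 without both), Cfp 1447537_at (0.032 without NZB_W array 1, -0.24 to 0.19 with any 1 array left out, 0.13 without both) and Cfp 1452279_at (-0.12 to 0.70 with any 1 array left out, -0.26 without both). Among the other genes followed under the alternatives, 351 of 375 values kept direction, and again some of these could not have turned. C1ra was 0.030 without NZB_W array 1 and ran from -0.24 to 0.063 with any 1 array left out. C2 was -0.00071 with median centring, -0.14 with the mean of probe sets, -0.37 without _s_at, _x_at and _a_at, -0.079 with array weights, -0.099 with the replicate block and without NZB_W array 3, -0.24 to 0.27 with any 1 array left out and -0.35 without both. Serping1 was -0.0029 with the replicate block and without NZB_W array 3, -0.063 to 0.14 with any 1 array left out and -0.10 without both. Cr1l was 0.0036 with quantile normalization, 0.081 with the mean of probe sets, 0.085 with array weights, and 0.066 with the replicate block, without NZB_W array 3 and without both (lowest -0.075 with 1 array left out). C5ar1 was -0.026 with array weights and -0.023 with the replicate block, without NZB_W array 3 and without both (highest 0.051 with 1 array left out).

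Same-numbered arrays share only a number in the titles (correlation of deviations -0.030 for number 1 and 0.035 for number 2). With the replicate block 0 of all probe sets passed, against 5 without it, 0 of the 12 passed either way, and the C1q median was 0.61. The gene-level mean gives no value for single probe sets of C1qb, Cfp and C3ar1.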
